A study of Mus musculus with 96 samples.

Results

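The comparison described here is HetKO against Wt in perivenous liver of mice fed a high-fat diet (HFD). Its members are the 24 areas of illumination (AOIs) whose titles read HFD and perivenous, 12 from HetKO and 12 from Wt livers, of 96 AOIs in all. Each genotype was represented by 4 mice with 3 AOIs each, and both genotypes were on the same slide. HetKO mice carry one disrupted copy of Gaa, made by inserting loxP sites around exons 4 and 5 with Tild-CRISPR/Cas9 and backcrossing to C57BL/6. The methods describe a disruption of the gene in the whole body from birth, so the line is not specific to the liver. Wt mice carry both intact copies and are titled Control. All mice of the comparison were male, were about 8 weeks old when the diet began, and were fed the HFD for 15 weeks. The other 72 AOIs are the periportal zone of the same mice and both zones of 8 mice fed a low-fat diet (LFD).

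Gaa encodes acid alpha-glucosidase, an enzyme of the lysosome that releases glucose from glycogen in the pathway called glycophagy. Glycogen can also be degraded in the cytosol, by glycogen phosphorylase and debranching enzyme. The liver lobule runs from the portal vein, where oxygen-rich blood enters, to the central vein. Perivenous hepatocytes surround the central vein and are known for glutamine synthesis, bile acid synthesis and cytochrome P450 metabolism, and they express genes driven by Wnt signaling. Periportal hepatocytes are known for gluconeogenesis, urea synthesis and oxidation of fatty acids.

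RNA was measured on 5 µm sections of fixed liver with GeoMx, in which probes carrying a sequence tag bind their transcripts, light releases the tags from a chosen area, and the tags are sequenced. The AOIs were chosen by staining for E-cadherin, a periportal protein, and Cyp2e1, a perivenous one. The panel table held 7394 gene targets and 1 negative probe, which binds no mouse transcript and measures background. A target is above the limit of quantitation (LOQ) of an AOI when it exceeds a threshold set by the negative probe there. Levels are given as log2(value + 1), with 1 mean of 3 AOIs for each mouse, and differences are HetKO minus Wt on that scale. The ± after a gene's difference is its SE from the limma fit, which shares variance between targets, and not an SD. The deposited values share an upper quartile of 60.2 in every AOI. Levels close to the negative probe are compressed toward it, so a fold change of a low target is understated. The AOIs of a mouse are not independent replicates, and every test used 1 value per mouse. An AOI contains several cell types, and fewer cells of a type cannot be told apart from less RNA per cell.

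The labelled zone was borne out by most of its markers. Cyp2e1 was higher in perivenous than in periportal AOIs of the same mouse by 4.41 on average, in 8 of 8 mice (exact two-sided paired permutation test, p = 0.007812, the smallest p this design allows). Glul, glutamine synthetase, was higher by 3.14, also in 8 of 8 mice. Cyp2f2, a periportal cytochrome P450, was lower in perivenous AOIs in every mouse, with a mean of -2.66. Cdh1, which encodes the stained E-cadherin, was above the LOQ in 0 of the 24 perivenous AOIs, and its count in periportal AOIs is not given here. Its perivenous minus periportal value was above 0 in 3 of 8 mice (exact paired permutation test, p = 0.203). The Cdh1 transcript therefore does not separate the zones in these mice, whereas Cyp2e1 and Glul do.

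Detection separated the genotypes before any single gene was considered. The share of targets above the LOQ was 45.5, 38.8, 35.5 and 41.8% in the HetKO mice and 29.6, 15.5, 15.02 and 15.9% in the Wt mice. The means were 40.4% ± 4.29 and 18.997% ± 7.06 (SD, n = 4 each, exact two-sided permutation test, p = 0.02857, the smallest that 4 against 4 mice allow, and 0.143 after adjustment over 10 technical measures). The groups did not overlap, and Wt mouse 1 lay between the HetKO mice and the other 3 Wt mice. Deduplicated reads per AOI ranged from 300100 to 1304000 in HetKO and from 204000 to 1644000 in Wt, and nuclei per AOI from 118 to 261 and from 129 to 247, so that depth and cell number overlapped. The median of the panel over the negative probe was 1.26 ± 0.042 in HetKO and 1.21 ± 0.132 in Wt (exact permutation p = 0.514). HetKO and Wt AOIs lay on opposite sides of the slide without overlap, so genotype and position on the slide cannot be told apart.

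Wt mouse 1 stood apart from its group. Over the tested targets its levels correlated with the 4 HetKO mice at r = 0.898 to 0.935, and with the other Wt mice at 0.619 to 0.805. The HetKO mice correlated with each other at 0.923 to 0.949. These correlations run across targets, which are not independent. All 3 AOIs of Wt mouse 1 carried the pipeline's tag for a low negative probe, which 4 of 12 Wt and 1 of 12 HetKO AOIs carried. Its periportal AOIs had 45.2% of targets above the LOQ, against 12.7 to 17.6% in the other Wt mice and 34.5 to 45.9% in HetKO. Results below are given with all 8 mice, and counts of calls also without Wt mouse 1. That mouse was singled out from these same values because it resembled the HetKO mice. Leaving it out therefore tends to widen the differences, and the counts without it are not independent support.

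**Figure D1:**
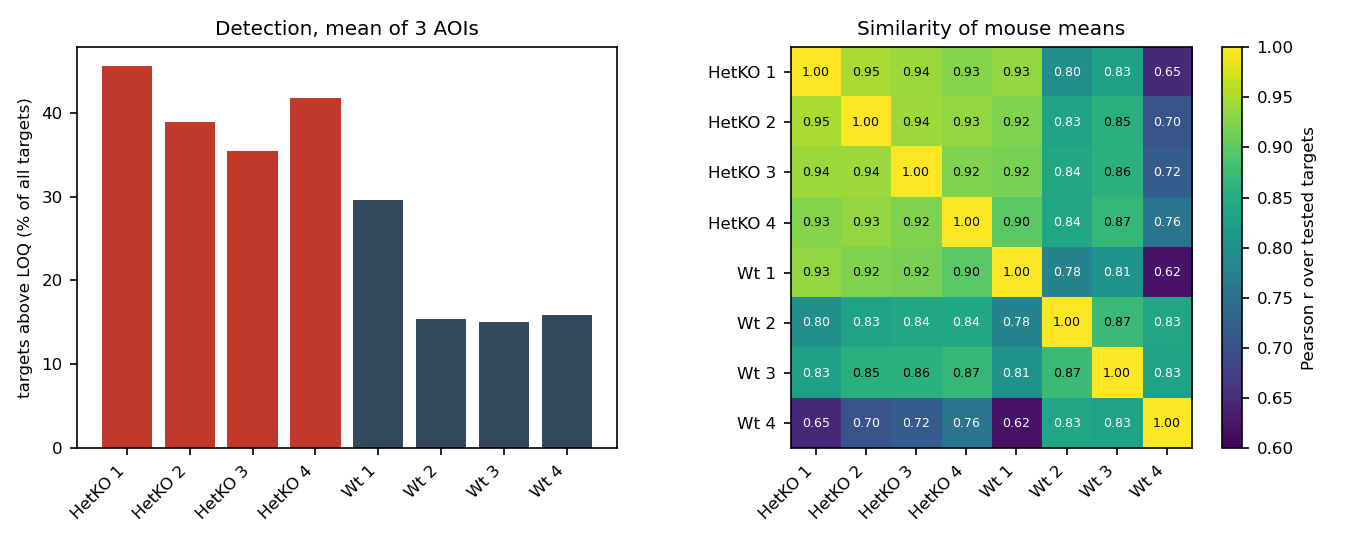
Left, the share of targets above the limit of quantitation (LOQ, % of all targets, mean of 3 AOIs) in each HFD perivenous mouse, HetKO in red and Wt in blue. Right, Pearson r between mouse means of log2(value + 1) over the tested targets. Wt mouse 1 detects 29.6% of targets, between the 35.5 to 45.5% of HetKO mice and the 15.02 to 15.9% of the other Wt mice, and its row resembles the HetKO rows.

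The targeted gene was measured first. Gaa stood at 5.58, 5.22, 5.23 and 5.38 in HetKO and at 5.79, 5.63, 5.31 and 5.38 in Wt. The groups overlapped, and most values lay close to the negative probe. The difference was -0.18 ± 0.15 (exact two-sided permutation test, p = 0.257), and its sign turned with scaling to nuclei (0.16) and with the negative probe subtracted (0.34). Gaa was above the LOQ in 3 of 12 HetKO and 1 of 12 Wt AOIs, and the loss of 1 of the 2 gene copies was not detected here. In 10 of the 96 AOIs its value was not a whole number of reads after the scale was removed, whereas nearly all targets gave whole reads in every AOI. In LFD perivenous AOIs, where detection was higher, the difference was -0.48 ± 0.16 (limma adjusted p = 0.999). The groups did not overlap there, at 5.25 to 5.81 in HetKO and 5.87 to 6.15 in Wt. Where the probe lies relative to exons 4 and 5 is not given in the sources used here, and the measurement does not check the genotype labels. With other assays, the paper reports less Gaa mRNA and GAA activity in HetKO than in Wt mice in several tissues, liver among them.

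Across 6805 tested targets, 0 (0%) passed an adjusted p under 0.05 with a log2 difference of at least 0.8 in limma, and the lowest adjusted p was 0.25. At an unadjusted p under 0.05, 835 targets were higher in HetKO (12.3%) and 184 were lower (2.70%). The 4 HetKO values lay wholly above the 4 Wt values in 249 targets (3.66%) and wholly below in 109 (1.60%). The split of the unadjusted calls depended on the scaling. It was 81.9% higher on the deposited scale, 98.4% with the negative probe subtracted, 100% for reads per nucleus, 55.2% after quantile normalization of the mouse means, 50% in DESeq2, 46.4% in edgeR and 28.3% for reads scaled to the total of the AOI (CPM). The median over all targets was 0.03 on the deposited scale, 0.66 with the negative probe subtracted, 0.35 per nucleus, -0.01 after quantile normalization and -0.18 for CPM. Directions below are on the deposited scale, and a value is best read against the median of its own scale.

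Count models on the recovered reads called few targets. DESeq2 on reads summed per mouse called 3 higher (0.0441% of targets), which were Gpcpd1, Aldh6a1 and Dbp, and 1 lower (0.0147%), Gm29758. DESeq2 on mouse means rounded to whole numbers called 1 (0.0147%), Gpcpd1. The edgeR quasi-likelihood test called 0, with 1160 targets at an unadjusted p under 0.05. Without Wt mouse 1, limma called 415 targets higher (6.10%) and 3 lower (0.0441%), the latter being Gm29758, Gm31035 and Gm21783. This leave-one-out count rests on 4 against 3 mice, and 0 were called when any other single mouse was left out. Of the 249 targets that lay wholly above Wt with all mice, 25 were among those called without Wt mouse 1.

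On the deposited scale the median difference was shifted only among the targets of the highest level. The 6805 targets were divided into quintiles of 1361 by their mean over the 8 mice. The median difference was -0.01, -0.04, -0.05 and 0.02 in the lower 4 quintiles, and 0.40 in the top quintile, whose levels ran from 5.96 to 13.09. The top quintile held 586 of the 835 targets that were higher at an unadjusted p under 0.05. Its median was 0.55 without Wt mouse 1, 0.20 for CPM and 0.17 after quantile normalization. For CPM the medians of the lower 4 quintiles were -0.21, -0.24, -0.25 and -0.18, so on that scale they were shifted the other way. By construction the top quintile holds the targets with the highest values, and for several lists below the number of members in it is given. Counts of higher genes in the lists below are best read against 12.3% of all targets and 586 of 1361 of this quintile. For members without overlap the shares are 249 of all targets wholly above Wt (3.66%), 93 of 1361 in this quintile and 72 of 1361 in the one below.

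**Figure D2:**
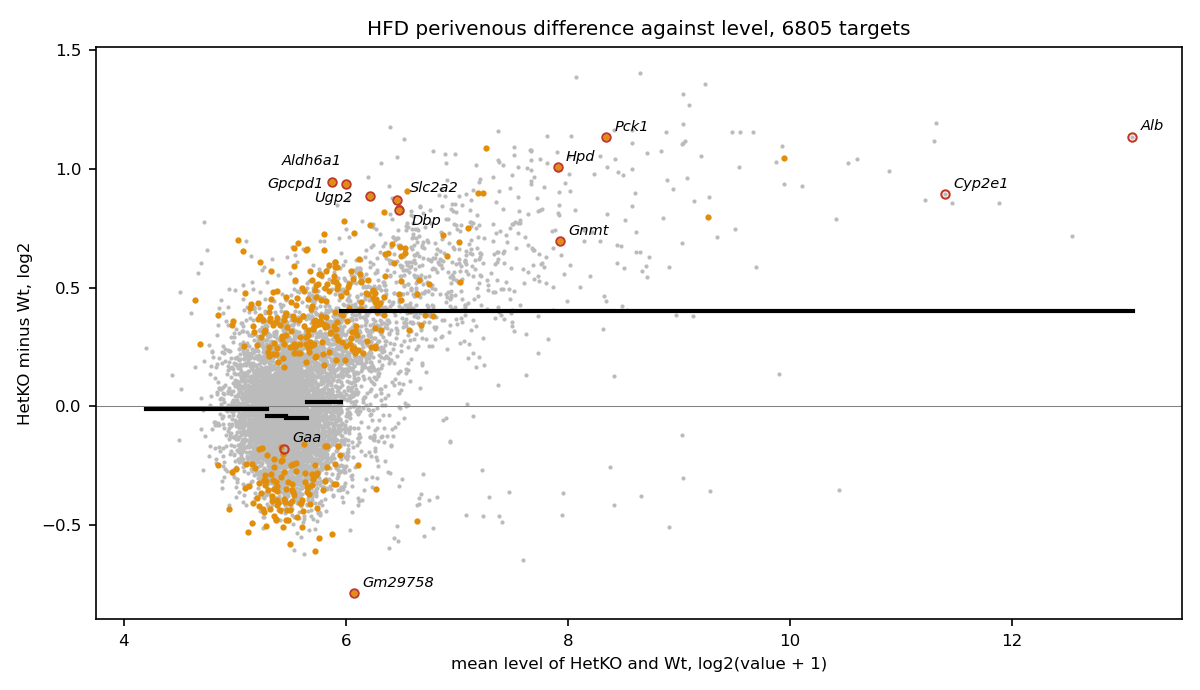
HetKO minus Wt difference (log2, vertical axis) against the mean log2(value + 1) of the 8 HFD perivenous mice (horizontal axis) for 6805 targets in grey. Orange points are targets whose 4 HetKO and 4 Wt values do not overlap, red rings the named genes, and black bars the median of each quintile, which is 0.40 in the top quintile and between -0.05 and 0.02 in the others.

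Gpcpd1 led the comparison. It encodes a phosphodiesterase that splits glycerophosphocholine into choline and glycerol phosphate. Its level was 6.40, 6.40, 6.33 and 6.75 in the HetKO mice and 5.94, 5.25, 5.41 and 5.54 in the Wt mice. All HetKO mice lay above all Wt mice, and Wt mouse 1 was the highest of its group. The transcript was above the LOQ in 12 of 12 HetKO but 2 of 12 Wt AOIs. Such counts, here and below, are best read against the 40.4% and 18.997% of all targets above the LOQ in HetKO and Wt. The difference in level was 0.94 ± 0.17 (limma adjusted p = 0.25). DESeq2 on recovered reads gave 0.90 (adjusted p = 0.00165). The difference kept its direction at 0.74 for CPM and 0.88 after quantile normalization. Within its quintile of level, 80 of 1361 targets had a larger difference.

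Aldh6a1 encodes the mitochondrial methylmalonate semialdehyde dehydrogenase of valine breakdown. It stood at 6.41, 6.13, 6.45 and 6.41 in HetKO and at 6.06, 4.90, 5.42 and 5.25 in Wt. The groups did not overlap, although Wt mouse 1 came close to the lowest HetKO mouse, while the other Wt mice lay at or near the negative probe. The difference was 0.95 ± 0.21 (limma adjusted p = 0.25), with 10 of 12 HetKO and 3 of 12 Wt AOIs above the LOQ. It was the largest of the 1361 differences in its quintile. DESeq2 on recovered reads gave 0.95 (adjusted p = 0.00177).

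Ugp2 makes UDP-glucose, the sugar donor of glycogen synthesis. Its level was 6.72, 6.68, 6.58 and 6.67 in HetKO against 6.22, 5.79, 5.64 and 5.45 in Wt. The HetKO mice lay within a narrow band above all Wt mice. The difference was 0.89 ± 0.17 (limma adjusted p = 0.25), and the target was above the LOQ in 12 HetKO and 2 Wt AOIs. In its quintile 100 of 1361 targets differed by more.

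Slc2a2 encodes GLUT2, the glucose transporter of the hepatocyte surface. The HetKO mice stood at 6.996, 6.985, 6.771 and 6.845 and the Wt mice at 6.55, 5.80, 5.92 and 5.86. Wt mouse 1 was set apart from the other 3 Wt mice, which lay close together, and all Wt values were below all HetKO values. The difference was 0.87 ± 0.17 (limma adjusted p = 0.25).

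Dbp is a transcription factor of the circadian output and one of the strongest cycling transcripts of liver. It was at 7.07, 7.10, 6.69 and 6.72 in HetKO and at 6.46, 6.10, 5.81 and 5.88 in Wt. The groups did not overlap, and 12 HetKO and 5 Wt AOIs were above the LOQ. The difference was 0.83 ± 0.17 (limma adjusted p = 0.25), and 129 of the 1361 targets in its quintile differed by more. DESeq2 on recovered reads gave 0.84 (adjusted p = 0.0468). The hour at which each mouse was killed is not given in the sources used here, and its part in the result was not tested.

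Without Wt mouse 1 the differences of these 5 genes were larger, at 1.07 for Gpcpd1, 1.16 for Aldh6a1, 1.03 for Ugp2, 1.04 for Slc2a2 and 0.96 for Dbp, and each was called by limma. With the share of targets above the LOQ as a covariate they were 0.25, -0.04, 0.17, 0.01 and 0.10. That covariate separates the genotypes completely, and the sign of 40 of 71 genes examined one by one turned under it.

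**Figure D3:**
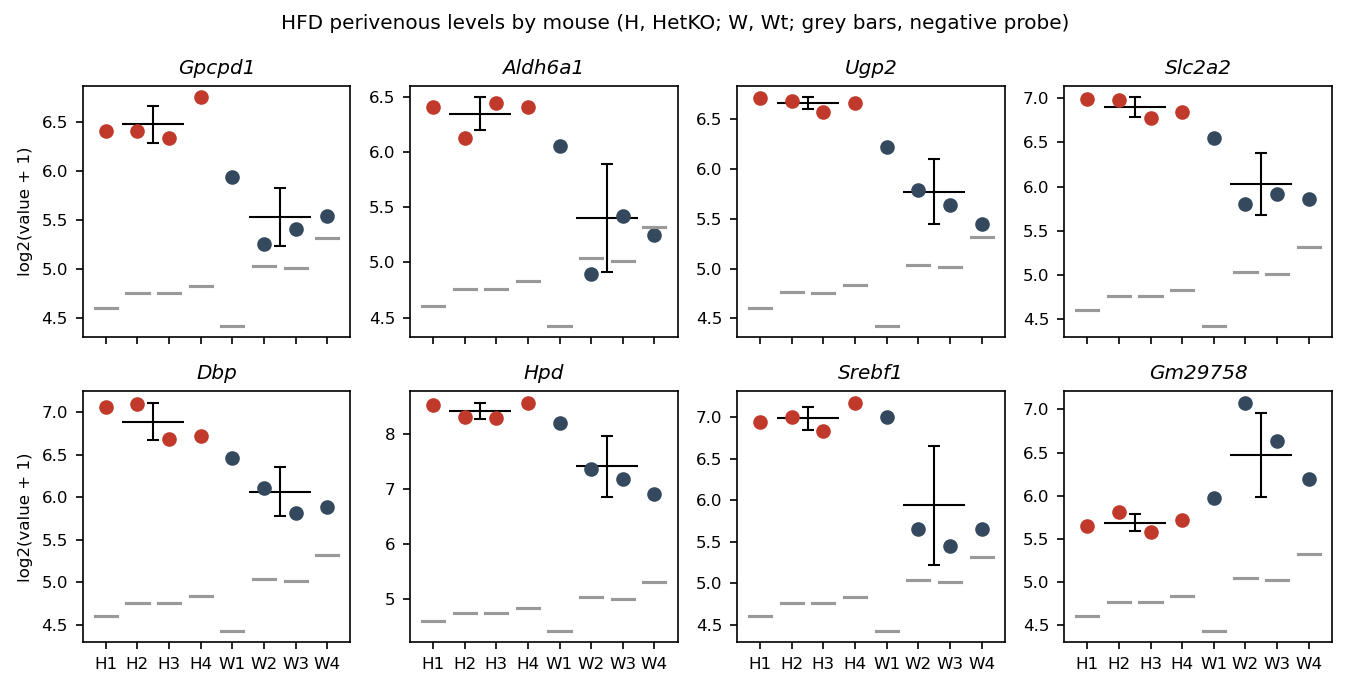
Level, log2(value + 1), of 8 genes in each HFD perivenous mouse, H1 to H4 for HetKO (red) and W1 to W4 for Wt (blue), each point the mean of 3 AOIs. Black lines are group means with SD, and grey bars the negative probe of that mouse. Gpcpd1, Aldh6a1, Ugp2, Slc2a2, Dbp and Hpd lie wholly higher in HetKO and Gm29758 wholly lower, whereas for Srebf1 Wt mouse 1 (7.0) lies among the HetKO mice (6.84 to 7.17).

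Of 17 tested genes of glycogen synthesis and breakdown, 8 were higher and 0 lower at an unadjusted p under 0.05, and 1, Ugp2, did not overlap. The median difference was 0.27, against 0.03 over all targets, and 8 of the 17 were in the top quintile. Pygl, the liver glycogen phosphorylase, stood at 7.746 to 7.995 in HetKO and at 7.91, 6.96, 7.22 and 6.70 in Wt, so that Wt mouse 1 lay within the HetKO range. Its difference was 0.67 ± 0.22. Ppp1r3b, which brings protein phosphatase 1 to glycogen, differed by 0.51 ± 0.17, and Gabarapl1, a member of the Atg8 family that has been linked to glycophagy, by 0.89 ± 0.29, again with Wt mouse 1 at the HetKO level.

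Of 22 genes of glucose uptake, glycolysis and gluconeogenesis, 12 were higher and 0 lower at an unadjusted p under 0.05, and the median was 0.54. The top quintile held 17 of the 22. Slc2a2 and Pck1 were the 2 without overlap. Pck1, the phosphoenolpyruvate carboxykinase of gluconeogenesis, was at 8.84, 8.89, 8.90 and 9.02 in HetKO and at 8.80, 8.12, 6.86 and 7.33 in Wt. The HetKO mice lay close together, while the Wt mice were widely spread and Wt mouse 1 nearly reached the lowest HetKO mouse. The difference was 1.13 ± 0.32. Mlxipl, the carbohydrate-responsive factor ChREBP, differed by 0.71 ± 0.19. For both the limma adjusted p was 0.25.

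The choline, ethanolamine and phospholipid list, to which Gpcpd1 belongs, had 12 of 23 tested members higher and 0 lower at an unadjusted p under 0.05, 4 without overlap, and a median of 0.42. The top quintile held 14 of the 23. Gnmt, which methylates glycine with S-adenosylmethionine, was at 8.23, 8.28, 8.23 and 8.36 in HetKO and at 7.91, 7.77, 7.30 and 7.33 in Wt. The groups were separate, with a difference of 0.70 ± 0.16, but after quantile normalization it was -0.03. Dmgdh, dimethylglycine dehydrogenase of choline breakdown, was at 6.62 to 6.73 in HetKO and 5.83 to 6.47 in Wt, and Etnk2, an ethanolamine kinase, at 6.52 to 7.01 and 5.83 to 6.43. Their differences were both 0.64.

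Of 21 genes of valine, leucine and isoleucine degradation, 8 were higher and 0 lower at an unadjusted p under 0.05, and 4 did not overlap. The median was 0.20, and 0.00 for CPM, with 9 of the 21 in the top quintile, and Aldh6a1 had the largest difference of the list. Hsd17b10, which acts in isoleucine breakdown, was at 6.51, 6.48, 6.20 and 6.41 in HetKO and at 6.14, 5.85, 5.84 and 5.69 in Wt. The groups were separate, by a small margin at Wt mouse 1, and differed by 0.52 ± 0.15. Hibadh, of valine breakdown, differed by 0.63 ± 0.24, with overlap through Wt mouse 1.

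The other amino acid degradation genes showed 21 of 31 higher and 0 lower at an unadjusted p under 0.05, 3 without overlap, with a median of 0.64 and 21 of the 31 in the top quintile. Hpd, the dioxygenase that forms homogentisate in the breakdown of tyrosine, stood at 8.52, 8.30, 8.28 and 8.55 in HetKO and at 8.19, 7.36, 7.17 and 6.90 in Wt. It was above the LOQ in all 24 AOIs, and the groups were separate. The difference was 1.01 ± 0.23, and 0.35 after quantile normalization. Hgd, which acts next in that pathway, stood at 7.96, 7.67, 7.76 and 7.85 against 7.65, 6.56, 6.66 and 6.01 and differed by 1.09 ± 0.27. Wt mouse 1 lay just below the lowest HetKO mouse for both. Kmo, of tryptophan breakdown, differed by 0.69 ± 0.19.

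The urea cycle list had 6 of 9 genes higher and 0 lower at an unadjusted p under 0.05. Among the higher genes was Aqp9, a channel and not an enzyme of the cycle. All 9 differences were above 0, with a median of 0.62. The top quintile held 7 of the 9. Otc, ornithine transcarbamylase, was at 6.38, 6.79, 6.53 and 6.70 in HetKO and at 6.36, 5.76, 5.66 and 5.58 in Wt. HetKO mouse 1 and Wt mouse 1 nearly met, the groups did not overlap, and the difference was 0.76 ± 0.18. Asl, argininosuccinate lyase, differed by 0.61 ± 0.20.

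Among 19 tested clock genes and outputs, 5 were higher and 1 lower at an unadjusted p under 0.05, and the median was 0.01, with -0.19 for CPM and -0.03 after quantile normalization. Dbp had the largest difference of the list. Tef, a factor related to Dbp, was at 4.97 to 5.22 in HetKO and 4.46 to 5.08 in Wt, above the LOQ in 0 of 24 AOIs. Bhlhe40, a repressor of clock transcription, differed by 0.52 ± 0.18, and Nr1d2, a nuclear receptor of the clock, by 0.50 ± 0.20. Among 20 genes of the response to fasting, glucocorticoid and insulin, 3 were higher and 0 lower, and the median was 0.07, with -0.13 for CPM. Cpt1a, which admits fatty acids to mitochondria, and Cebpa, a liver transcription factor, were 2 of these, at 0.88 ± 0.31 and 0.73 ± 0.27, and for both Wt mouse 1 stood within or above the HetKO range.

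Fatty acid oxidation had the highest share of members past the unadjusted threshold. Of 29 genes 24 were higher and 0 lower, all 29 differences were above 0, and the median was 0.62, with 28 of the 29 in the top quintile. The mean level over the list was 7.32, 7.18, 7.04 and 7.11 in HetKO and 7.22, 6.33, 6.35 and 6.001 in Wt. Wt mouse 1 was above 3 of the 4 HetKO mice, and the other 3 Wt mice were lower. Acadvl, the very long chain acyl-CoA dehydrogenase, was at 6.71, 6.89, 6.73 and 6.97 against 6.39, 6.05, 5.82 and 6.37. Slc25a20, which exchanges acylcarnitine for carnitine across the inner mitochondrial membrane, was at 6.57, 6.49, 6.44 and 6.22 against 6.14, 5.67, 5.80 and 5.62. Neither overlapped, and their differences were 0.67 ± 0.16 and 0.62 ± 0.16. Acsl1, which activates long chain fatty acids, differed by 1.06 ± 0.25 with overlap.

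Of 19 genes of lipogenesis and desaturation 7 were higher and 0 lower at an unadjusted p under 0.05, 0 lacked overlap, and the median was 0.62. The top quintile held 13 of the 19. Srebf1, the sterol regulatory element factor of lipogenesis, was at 6.94, 7.0, 6.84 and 7.17 in HetKO and at 7.0, 5.65, 5.45 and 5.66 in Wt. Wt mouse 1 stood at the level of HetKO mouse 2, and the other Wt mice were more than a log2 unit lower. The difference was 1.05 ± 0.28, with 12 HetKO and 3 Wt AOIs above the LOQ. Fads2, a desaturase of polyunsaturated fatty acids, differed by 1.14 ± 0.39. Of 20 lipid droplet and uptake genes, 9 were higher and 1 lower, with a median of 0.40 and 10 of the 20 in the top quintile. Pnpla2, the adipose triglyceride lipase, was without overlap, at 5.999, 5.995, 5.934 and 5.930 in HetKO and 5.28, 5.70, 5.37 and 5.37 in Wt. Its difference was 0.53 ± 0.14. Plin2, a droplet coat protein, differed by 1.14 ± 0.36 and overlapped through Wt mouse 1 at 8.48.

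Cholesterol synthesis and uptake had 5 of 20 genes higher and 1 lower at an unadjusted p under 0.05, with a median of 0.09 that was -0.11 for CPM. Of 20 bile acid genes 11 were higher and 0 lower, and the median was 0.44. The top quintile held 16 of these 20. Sult2a8, a bile acid sulfotransferase of mouse liver, was at 8.12, 8.41, 7.59 and 8.61 in HetKO and 7.74, 6.92, 7.20 and 6.74 in Wt. Only HetKO mouse 3 lay below the highest Wt mouse, and the difference was 1.04 ± 0.24. Akr1d1, a reductase of bile acid synthesis, had no overlap and differed by 0.51 ± 0.15.

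Cytochrome P450 families 1 to 3 had 8 of 20 tested genes higher and 0 lower at an unadjusted p under 0.05, and a median of 0.41 that was 0.07 after quantile normalization. The top quintile held 15 of the 20. Cyp3a25 and Cyp2d26 differed by 1.02 ± 0.29 and 0.98 ± 0.30, with Wt mouse 1 inside the HetKO range of both. Phase II conjugation is the step that couples drugs and hormones to soluble groups. Of its 27 genes 12 were higher and 0 lower, 5 without overlap. Their median was 0.39, and 11 of the 27 were in the top quintile. Ugt2b34, a glucuronosyltransferase, was at 6.46, 6.12, 5.96 and 6.11 in HetKO and at 5.82, 5.05, 5.56 and 5.34 in Wt. Gstk1, a mitochondrial and peroxisomal glutathione transferase, was at 5.73, 5.93, 5.84 and 5.97 against 5.38, 5.38, 5.46 and 5.30. Both were separate between the genotypes, by 0.72 ± 0.18 and 0.49 ± 0.13, and Gstk1 was above the LOQ in 10 HetKO and 0 Wt AOIs.

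Of 20 Wnt target and perivenous genes 12 were higher and 0 lower at an unadjusted p under 0.05, 0 lacked overlap, and the median was 0.50. The top quintile held 14 of the 20. Cyp2e1 was at 12.20, 11.80, 11.53 and 11.85 in HetKO and at 11.83, 10.84, 11.17 and 9.97 in Wt. The groups overlapped, and the difference was 0.89 ± 0.31 (exact two-sided permutation test, p = 0.0857). Rhbg, an ammonium transporter, was at a mean of 5.19 in HetKO and 5.42 in Wt, near background. Glul differed by 0.92 ± 0.41 and Rgn, the calcium-binding protein regucalcin, by 1.11 ± 0.29. Nr1i3, the xenobiotic receptor CAR, was at 7.47, 7.29, 6.63 and 6.94 in HetKO and at 7.20, 5.70, 5.55 and 5.37 in Wt. HetKO mice 3 and 4 lay below Wt mouse 1, and the difference was 1.13 ± 0.34. The 25 periportal genes had 11 higher and 1 lower, with 18 of 25 differences above 0 and a median of 0.25. The summed level of 6 defining periportal markers was 7.67 to 8.05 in HetKO and 7.82 to 7.93 in Wt, and 3 of the 6 were above the LOQ in any of the 24 AOIs.

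The lysosome and autophagy list, which covers the compartment where GAA acts, had 13 of 44 tested genes higher and 1 lower at an unadjusted p under 0.05, 3 without overlap, and a median of 0.23. Over all targets 12.3% were higher and 3.66% lay wholly above Wt, and in the top quintile 586 and 93 of 1361. Of the 44 genes 16 were in that quintile. Ctsh, a cathepsin, was at 6.75, 6.50, 6.29 and 6.46 in HetKO and at 6.28, 5.96, 5.97 and 5.89 in Wt. The groups did not overlap, although HetKO mouse 3 and Wt mouse 1 nearly met, and the difference was 0.48 ± 0.15. Scarb2, the lysosomal membrane protein LIMP-2, differed by 0.67 ± 0.20, and Sqstm1, the autophagy receptor p62, by 0.75 ± 0.23, both with overlap.

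Lists of abundant housekeeping and secretory genes are given beside the metabolic ones. Secreted plasma proteins had 26 of 38 higher and 0 lower at an unadjusted p under 0.05, and a median of 0.71 that was 0.13 after quantile normalization. Apoa5, an apolipoprotein of triglyceride-rich particles, differed by 1.16 ± 0.27, and Igf1, the growth factor made by liver, was separate at 6.78 to 6.91 in HetKO and 5.80 to 6.60 in Wt. Alb was at 14.10, 13.64, 13.92 and 12.96 in HetKO and at 14.004, 12.35, 12.75 and 10.97 in Wt. Its difference was 1.14 ± 0.48, and 0 after quantile normalization, which sets each level by its rank within the mouse. All 77 tested cytosolic ribosomal protein genes were in the top quintile, 26 were higher (a smaller share than the 586 of 1361 of that quintile) and 0 lower, and their median was 0.50 on the deposited scale and 0.00 after quantile normalization. Oxidative phosphorylation had 57 of 74 genes in the top quintile, 37 higher and 0 lower. Its median was 0.44, and 0.25 after quantile normalization, where the medians of that whole quintile were 0.40 and 0.17. The TCA cycle list had 13 of 24 higher, 0 lower and medians of 0.36 and 0.31, with 10 of the 24 in the top quintile.

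Acute phase genes had 0 of 18 higher and 0 lower at an unadjusted p under 0.05, although 11 of the 18 were in the top quintile, and their median was 0.02, with -0.13 after quantile normalization and -0.19 for CPM. Chaperones and genes of ER stress had 4 of 23 higher and 0 lower, with a median of 0.16 that was -0.03 for CPM. Complement and coagulation genes had 14 of 37 higher and 0 lower (median 0.40), and growth hormone and sex-dimorphic targets 2 of 17 higher and 0 lower (median 0.26). The former had 25 of 37 members in the top quintile, and the share of the latter was near the 12.3% of all targets.

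Leaving out Wt mouse 1 changed the calls within the lists, which were 0 with all mice. Without it limma called higher 28 of 38 plasma protein genes, 17 of 29 of fatty acid oxidation, 17 of 31 of other amino acid degradation, 11 of 22 of glucose metabolism, 11 of 19 of lipogenesis, 32 of 77 ribosomal protein genes and 24 of 74 of oxidative phosphorylation. The corresponding count over all targets was 415 (6.10%). It was 3 of 17 for glycogen, 5 of 21 for valine, leucine and isoleucine degradation, 8 of 44 for the lysosome and 1 of 19 for the clock. The top quintile held 37 of the 38 plasma protein and 28 of the 29 fatty acid oxidation genes. Its median difference was 0.40 with all mice and 0.55 without Wt mouse 1. Because that mouse was picked for its likeness to HetKO, these counts are not independent support for a pathway.

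**Figure D4:**
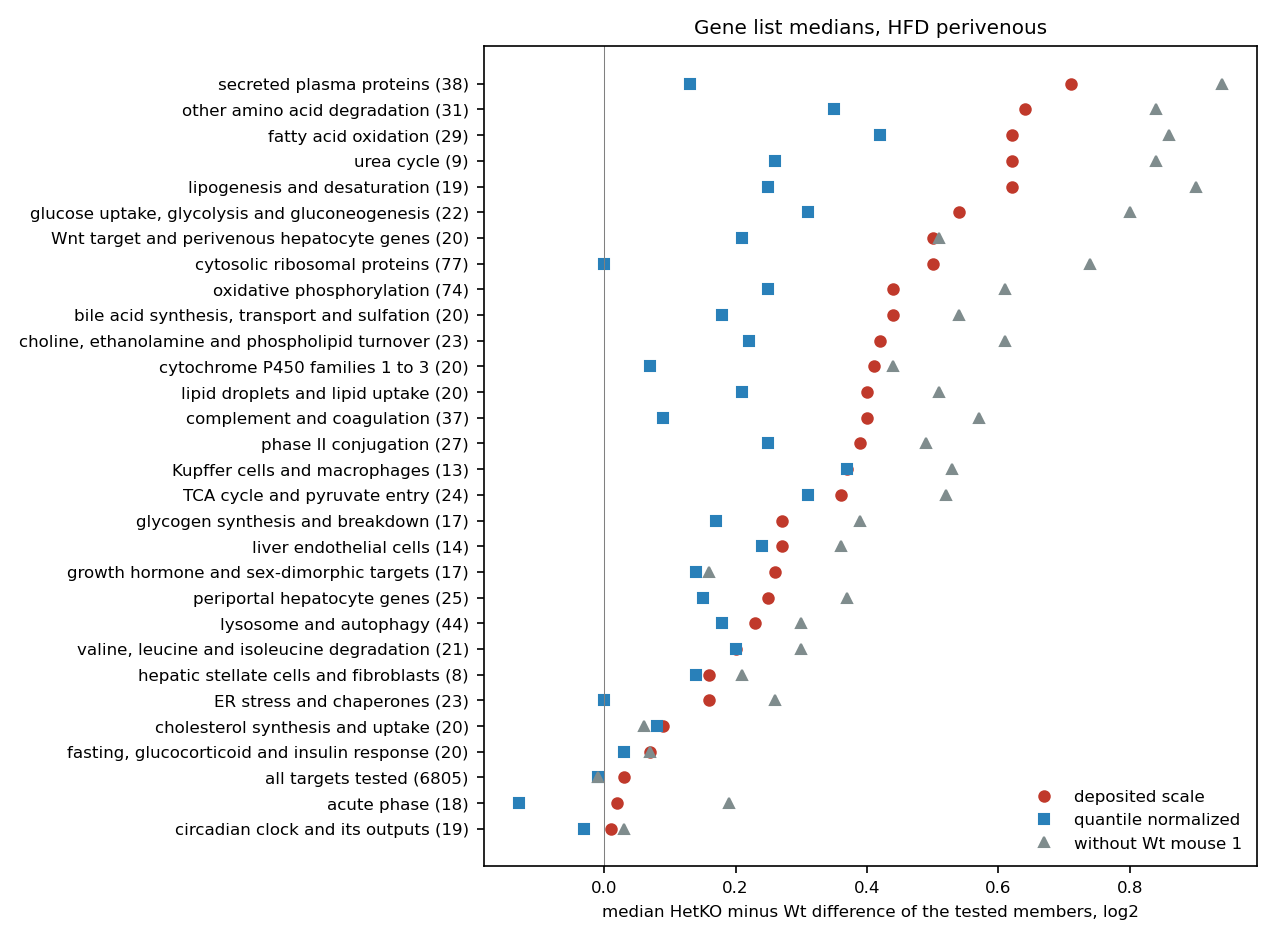
Median HetKO minus Wt difference (log2) of the tested members of each gene list, with the number of members in brackets, for all 8 mice on the deposited scale (circles), after quantile normalization (squares) and without Wt mouse 1 (triangles). Secreted plasma proteins lead at 0.71 but are at 0.13 after quantile normalization, fatty acid oxidation is at 0.62 and 0.42, and the median over all targets is 0.03. On CPM, not drawn, the medians of clock, fasting, cholesterol, acute phase, ER stress and stellate cell genes lie below 0.

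Markers of other liver cells were measured beside these results. Of 13 tested Kupffer cell and macrophage genes 5 were higher and 0 lower at an unadjusted p under 0.05 (median 0.37), and 9 of the 13 differences were above 0. Clec4f, a Kupffer cell lectin, differed by 0.56 ± 0.20, whereas the means of Vsig4, Marco and Adgre1 were 5.25, 5.10 and 5.69 in HetKO and 5.46, 5.16 and 5.80 in Wt. Of 14 endothelial genes 5 were higher and 0 lower (median 0.27). Stab2, a scavenger receptor of the sinusoid wall, was at 5.94, 5.98, 6.30 and 5.68 in HetKO and at 5.63, 4.78, 5.33 and 5.50 in Wt, separate by 0.66 ± 0.20. Of 8 stellate cell and fibroblast genes 2 were higher and 0 lower (median 0.16, and -0.03 for CPM), and Dcn, decorin, differed by 1.03 ± 0.33. The summed level of 6 Kupffer markers was 8.13 to 8.71 in HetKO and 7.999 to 8.446 in Wt, that of 3 stellate markers 7.44 to 8.23 and 7.12 to 7.72, and that of 3 endothelial markers 6.87 to 7.36 and 6.49 to 6.94. The 4 hepatocyte markers summed to 13.76 to 14.61 and 11.74 to 14.50. All these ranges overlapped, hepatocyte markers differed as well, and the part of cell composition in the result was not tested. The defining T and B cell markers and the neutrophil markers S100a8 and S100a9 were not among the targets analysed here.

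Several of the smallest p values on the higher side belonged to genes of no single pathway. Hpgd, which inactivates prostaglandins, was at 6.53, 6.34, 6.61 and 6.27 in HetKO and at 5.96, 5.78, 5.62 and 5.47 in Wt. Inmt, an N-methyltransferase of indole amines, was at 6.76, 7.19, 6.88 and 6.77 against 6.45, 6.09, 6.15 and 5.55. Srsf5, a splicing factor, was at 7.72, 7.65, 7.60 and 7.59 against 7.42, 6.71, 6.62 and 6.24. All 3 were separate between genotypes, by 0.73 ± 0.15, 0.84 ± 0.19 and 0.90 ± 0.21, and for each Wt mouse 1 was the highest Wt mouse. Hagh, of the glyoxalase system, Huwe1, a ubiquitin ligase, H2bc8, a histone H2B, Gpr146, a G protein-coupled receptor, and Gm4951 were separate by 0.59 to 0.69. Of these Gpr146 was above the LOQ in 2 HetKO and 0 Wt AOIs, Huwe1 in 8 and 1, and Gm4951 in 10 and 0. Hagh was above it in 12 HetKO and 1 Wt AOIs and H2bc8 in 11 and 1. The Wt group of each therefore lay mostly at background.

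On the deposited scale the lower side was sparse and lay mostly near background. At an unadjusted p under 0.05 it held 184 targets there, but 771 for CPM. Gm29758, for which no function is given here, was at 5.64, 5.80, 5.57 and 5.72 in HetKO and at 5.97, 7.08, 6.64 and 6.19 in Wt. Every HetKO mouse lay below every Wt mouse, with 7 of 12 HetKO and 10 of 12 Wt AOIs above the LOQ. The difference was -0.79 ± 0.21 (limma adjusted p = 0.25), the lowest of all tested targets, and DESeq2 on recovered reads gave -0.88 (adjusted p = 0.0313). Ints12, a subunit of the Integrator complex, was at 4.93, 4.95, 4.72 and 4.82 against 5.30, 5.50, 5.47 and 5.25, but was above the LOQ in 0 of 24 AOIs, as were Prr9 and Gtf3c2. Rmnd5b was at 5.11 to 5.31 against 5.55 to 5.82 and was above the LOQ in 2 HetKO and 1 Wt AOIs. Apol7c, Gm3696, Gm10058, Ints10 and Amy2a1 were also separate, with differences of -0.61 to -0.48. The negative probe itself was at 23.3 to 27.6 in HetKO and at 20.5 to 38.9 in Wt on the linear scale, highest in Wt mice 2 to 4, and its part in these low values was not tested.

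In the periportal zone of the same mice limma called 0 of 6805 targets (0%), with 698 higher (10.3%) and 294 lower (4.32%) at an unadjusted p under 0.05. Without Wt mouse 1 it called 395 higher (5.80%) and 16 lower (0.235%). The periportal and perivenous values come from the same mice and slide and are therefore not independent. The leading genes had periportal differences of 0.51 for Gpcpd1, 0.62 for Aldh6a1, 0.73 for Ugp2, 0.71 for Slc2a2 and 0.71 for Dbp, and Hpd was at 1.07. Gm4951, H2bc8, Huwe1 and Stab2 were near 0 there, at 0.05, 0.08, 0.04 and 0.03. A test of the difference between zones called 0 targets (0%), with 274 at an unadjusted p under 0.05 in one direction, where the perivenous difference was greater (4.03%), and 132 in the other (1.94%). Without Wt mouse 1 it called 5, and without HetKO mouse 2 it called 1. For Gpcpd1 the perivenous difference was greater by 0.42 ± 0.19 (limma adjusted p = 0.83). The perivenous difference of Rgn was 1.11 against 0.39 in periportal AOIs, and that of Glul 0.92 against 0.07.

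On the LFD the perivenous genotype comparison called 0 of 6805 targets (0%), with 78 higher (1.15%) and 17 lower (0.250%) at an unadjusted p under 0.05. Detection overlapped between the genotypes there, at 49.9 to 76.4% of targets in HetKO and 42.6 to 70.98% in Wt, although the genotypes again lay on opposite sides of the slide. Gpcpd1 was at 7.03, 6.83, 7.45 and 7.20 in LFD HetKO and at 7.03, 7.20, 6.50 and 7.38 in LFD Wt. The groups overlapped throughout, and the difference was 0.10 ± 0.20. Aldh6a1, Ugp2 and Slc2a2 differed by 0.05, 0.10 and 0.04 on the LFD. The LFD medians of the metabolic lists ran from -0.09 for cytochrome P450 genes to 0.29 for lipogenesis, against 0.07 over all targets. They were 0.24 for fasting response genes, 0.16 for cholesterol, 0.09 for fatty acid oxidation and -0.01 for glycogen, and acute phase genes were at 0.30.

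The test of whether the genotype difference differed between diets called 0 targets (0%), with 250 at an unadjusted p under 0.05 where the HFD difference was greater (3.67%) and 145 in the other direction (2.13%). Without HFD Wt mouse 1 it called 67. Nr1i3 had the widest gap among the genes examined, with 1.13 ± 0.34 on the HFD and -0.72 ± 0.16 on the LFD. On the LFD it stood at 6.80, 7.17, 7.16 and 7.16 in HetKO and at 7.94, 7.45, 7.91 and 7.89 in Wt, so all HetKO mice were lower there. The difference between diets was 1.85 ± 0.40 (limma adjusted p = 0.77). Dbp was at 6.11, 6.64, 6.69 and 7.53 in LFD HetKO and at 7.05, 6.81, 7.44 and 7.77 in LFD Wt, which overlap. Its genotype difference was -0.53 ± 0.27 on the LFD, and the difference between diets was 1.35 ± 0.35 (limma adjusted p = 0.77). Srebf1 was at -0.44 ± 0.29 on the LFD, and Gpcpd1 differed between diets by 0.84 ± 0.27 (limma adjusted p = 0.77). None of these passed the adjusted threshold, and each diet was on a slide of its own, so a difference between diets cannot be told apart from one between slides.

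**Figure D5:**
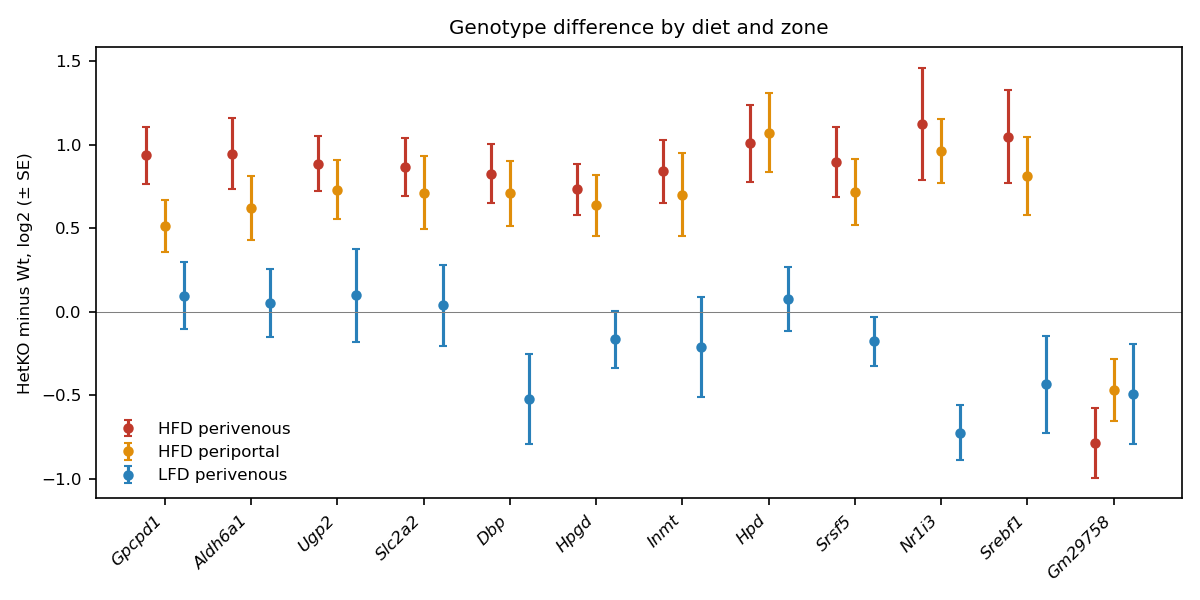
HetKO minus Wt difference (log2, points) with its SE (bars) for 12 genes in HFD perivenous (red), HFD periportal (orange) and LFD perivenous (blue) AOIs, 4 mice per genotype. The 2 HFD zones share mice. Gpcpd1 is at 0.94, 0.51 and 0.10, Dbp at 0.83, 0.71 and -0.53 and Nr1i3 at 1.13, 0.96 and -0.72.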

How the data were processed

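GeoMx tags were counted by the authors with the GeoMx NGS Pipeline version 2.3.3.10 and duplicates were removed. The deposited signal values are counts scaled to an upper quartile of 60.2 for each AOI, whereas a correction for nuclei is described in the methods. Sequencing saturation was deposited by the authors as a percent. The labels name the genome build mm10. Divided by each AOI's scale, 99.9463% of values were whole reads within 0.01, and these recovered reads were used for the count models.

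Values were taken as log2(value + 1), with 1 mean of 3 AOIs for each mouse, and compared between 4 HetKO and 4 Wt mice with limma 3.58.1 in R 4.3.3. This fit was planned as the main test because the values were expected to be scaled counts, and a count test was planned only for raw counts. Targets that exceeded the LOQ of 10 or more of the 96 AOIs were tested (6805), p values were adjusted by Benjamini-Hochberg over them, and a call needed an adjusted p under 0.05 and a log2 difference of at least 0.8 in size. Single measures were tested by exact permutation over mice. The labels give separate mice but not litters.

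Alternatives were edgeR 4.0.16 (TMM), DESeq2 1.42.0 on recovered reads and on rounded means, no detection filter, detection in 12 of the 24 AOIs, pseudocount 10, reads per nucleus, CPM from recovered reads, subtraction of the negative probe, a detection covariate, all 4 perivenous groups together, the mouse number as a block, log2 of the mean, and leaving out each mouse. Quantile normalization, the list medians under each alternative, the median of 3 AOIs for technical measures and the alternatives of the other comparisons were chosen after seeing the data. The script was tested on simulated data.

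Members and lists were chosen with earlier results of these data known. Named genes were Gaa, Gpcpd1, Aldh6a1, Ugp2, Dbp, Cdh1, Cyp2e1, the 15 higher and 10 lower targets without overlap and with the smallest limma p, targets called by a count model, and from each list at most 4 members by limma p, of which those printed were picked after their values were seen. Gm31035, Gm21783 and the remaining cell type markers were named outside that rule. Of the per-sample value columns listed for AOIs, 8 were not used. Some members of the lists are not reported here by name.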

Additional observations from a re-analysis of the deposited data

Results flagged for a closer look

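In 10 of 76 groups of 4 mice that were examined, 1 mouse lay far from the other 3 relative to the range of its group. Chance alone gives about 1 in 20 such groups when they are independent. These groups share the same mice and include related measures and genes picked by their values, so that rate is no test here. Wt mouse 1 was the distant mouse for Slc2a2 (6.549), Hagh (5.856) and Cdh1 (4.559), and for the share of targets above the LOQ (29.57%). Wt mouse 2 was distant for Gpr146 (4.445). Among HetKO mice, mouse 4 was the distant one for Gpcpd1 (6.746) and mouse 2 for Aldh6a1 (6.132), in both cases still above every Wt mouse. Wt mouse 4 had 1304000 deduplicated reads per AOI and 13060000 aligned reads, and HetKO mouse 4 had 9574000 aligned reads, each the deepest of its group.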

How the results depend on the processing

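The number of targets called in the HFD perivenous comparison was 0 with all mice in limma, 4 with DESeq2 on recovered reads and 1 with DESeq2 on rounded means. Leaving out single mice gave 0 to 418, where the 418 came without Wt mouse 1. In the periportal zone leaving out mice gave 0 to 411, in the difference between zones 0 to 5 (5 without Wt mouse 1 and 1 without HetKO mouse 2), and in the difference between diets 0 to 67 (67 without Wt mouse 1). With the mouse number as a replicate block 145 targets were called, all of them among the 418. Same-numbered mice deviated from their group means with r = 0.48, 0.05, -0.02 and 0.35, and 5 of 8 mice correlated best with their own number. The labels name no litter or batch behind a number, and not every r passed 0.1. Same-numbered mice did lie at similar heights on the slide, from 19890 and 19670 for mouse 1 to 52910 and 55010 for mouse 4 in the deposited position units, and the part of that shared position was not tested.

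The signs of the leading genes held under the count models, filters, pseudocount, block and every omitted mouse. Gnmt turned to -0.030 after quantile normalization, Gaa to 0.16 and Cdh1 to 0.022 per nucleus, and Gaa to 0.34 with the negative probe subtracted. Of 71 genes, 40 turned with the share of targets above the LOQ as a covariate, which separates the genotypes completely. These were Aldh6a1 (-0.040), Cdh1 (1.25), Cyp2e1 (-0.70), Hpd (-0.30), Srsf5 (-0.13), Gm10058 (0.035), Pygl (-0.47), Ppp1r3b (-0.23), Gabarapl1 (-0.84), Mlxipl (-0.26), Pck1 (-0.38), Hsd17b10 (-0.0039), Hibadh (-0.66), Hgd (-0.38), Kmo (-0.28), Asl (-0.28), Dmgdh (-0.045), Etnk2 (-0.17), Bhlhe40 (-0.18), Nr1d2 (-0.37), Acsl1 (-0.46), Srebf1 (-0.60), Fads2 (-0.79), Plin2 (-0.72), Sult2a8 (-0.11), Cyp3a25 (-0.65), Cyp2d26 (-0.46), Ugt2b34 (-0.087), Rgn (-0.52), Nr1i3 (-1.09), Scarb2 (-0.29), Sqstm1 (-0.21), Ctsh (-0.14), Apoa5 (-0.38), Cpt1a (-1.05), Cebpa (-0.86), Clec4f (-0.41), Dcn (-0.93), Glul (-0.47) and Alb (-0.97). The cause was not tested. Targets at an unadjusted p under 0.05 numbered 304 higher and 771 lower for CPM, 534 and 433 after quantile normalization, 504 and 504 in DESeq2, 538 and 622 in edgeR, 319 and 191 in DESeq2 on rounded means, 122 and 0 per nucleus, 1127 and 18 with the negative probe subtracted, and 518 and 19 of 1927 targets under the stricter filter.

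Wt mice 2 to 4 detected 15.02 to 15.9% of targets, so low transcripts there are bounded by background, and 4 mice per genotype cannot give an exact p under 0.02857. The SDs of group means and the SEs of differences rest on variation between mice only.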
